A study of Caenorhabditis elegans with 14 samples.

Results

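The difference between XO hermaphrodites and XX males of Caenorhabditis elegans was compared between L3 larvae and young adults. For every gene the difference in young adults minus the difference at L3, the interaction of animal and stage, was computed on the log2(FPKM + 1) scale, where FPKM is fragments per kilobase of transcript, scaled to sequencing depth. It used 13 of the 14 libraries and all 14628 genes whose mean reached 1 FPKM, out of 20376 usable genes. The members closest to that limit were ZK353.2 (mean 1.0015 FPKM) and srh-71 (1.002), and the genes closest below it were vet-6 (0.999) and B0024.3 (0.9982). XO hermaphrodites were strain TY2205, which has 1 X chromosome and a hermaphrodite body. XX males were strain CB5362, which has 2 X chromosomes and a male body. L3 larvae were grown for 24 h after hatching overnight and young adults for 44 h at 25 °C; no temperature is given for the L3 larvae. There were 3 libraries of each animal at L3, 3 of XO hermaphrodite young adults and 4 of XX male young adults, all from whole worms by poly(A) RNA sequencing. Another TY2205 young adult library, which the submitters labelled as a reverted mutant, entered nothing. Strain, sex and X number change together in every comparison, and stage changes with hours of growth and possibly with temperature, so these cannot be told apart. The labels name the strains and not their alleles; as background, both strains carry a mutation in the X-linked switch gene xol-1, TY2205 also in her-1 and sdc-3, and CB5362 also in tra-2.

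In C. elegans the hermaphrodite is a female body whose germ line makes sperm briefly in the last larval stage and then only oocytes, while the male germ line goes on making sperm. At L3 the germ line of either sex is mostly dividing and entering meiosis, the body is a larva with few sex-specific structures finished, and the next molts remake the cuticle. By young adulthood a hermaphrodite holds yolk-filled oocytes, and a male holds sperm, seminal fluid cells and the ray and hook neurons of the tail.

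The deposited values do not give depth. The steps between low values put the L3 libraries at 0.225 to 0.914 and the young adult libraries at 0.62 to 1.46 of the depth of XX male young adult replicate 1, so low genes are less precise at L3. The median standard deviation within a group on the log2 scale was 0.356 and 0.347 in XO and XX animals at L3, and 0.177 and 0.204 in young adults. The fit gave each gene 1 spread estimate for all groups. Standard errors and p-values below therefore tend to be too small for L3 differences and too large for young adult ones. Sums of FPKM did not overlap between animals at either stage. The XO hermaphrodites summed to 1317414 to 1574087 as larvae and 916127 to 940071 as young adults, the XX males to 1216741 to 1289639 and then 1159056 to 1298816. Among the L3 libraries 2 stood apart. XX male L3 replicate 1 had rank correlations of 0.673 to 0.723 with the XX male young adults, against 0.497 to 0.556 for the other XX male L3 libraries. XO hermaphrodite L3 replicate 1 was closer to XX male L3 replicate 2 (0.943) than to its own group (0.907 and 0.917). The mutated genes were checked in every library. The switch gene xol-1 was listed at 0 in all 13 libraries, and her-1, the male-promoting ligand, lay at 9.83 to 42.7 FPKM in XO hermaphrodites and 0.401 to 1.69 FPKM in XX males over both stages. The interaction of her-1 was 0.98 ± 0.622 on the log2 scale (SE, limma adjusted p = 0.2).

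The interaction test called the larger part of the tested genes. At an adjusted p under 0.05 there were 8272 of 14628 genes (56.5%), of which 4774 moved toward XO hermaphrodites with stage (32.6% of all tested) and 3498 toward XX males (23.9%); 8953 genes had an unadjusted p under 0.05. In the calls, 57.7% were higher, a share that depended on scaling: it was 71.5% when libraries were scaled to a common sum and 40.8% with upper quartile scaling. The median interaction of all genes was 0.07 as deposited, 0.60 with the common sum, -0.42 with the upper quartile, -0.21 with median ratio and 0.19 with quantile normalization, and list medians below are read against that shift. Of the called genes, 7689 (93.0%) also had a difference called in young adults and 652 (7.88%) had one at L3. Over all tested genes the difference was called higher in 1.26% and lower in 4.31% at L3, and higher in 33.9% and lower in 33.3% in young adults.

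**Figure D1:**
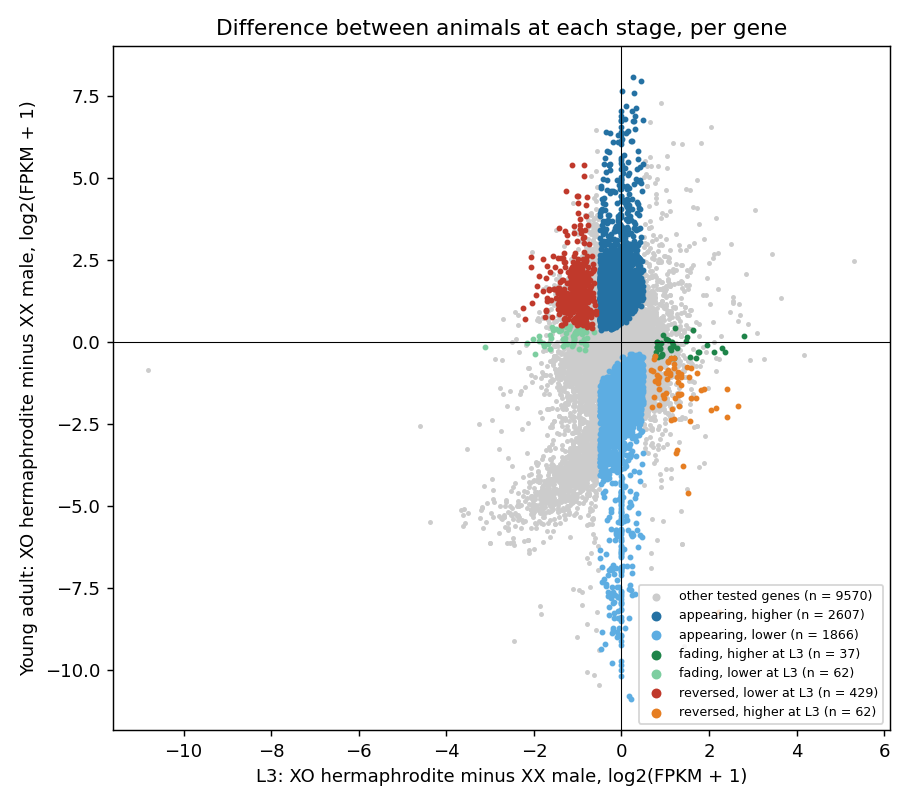
Each point is 1 of 14628 genes; the x axis is the difference between XO hermaphrodites and XX males at L3 and the y axis the same in young adults, both as log2(FPKM + 1). Coloured genes were called in the interaction: 429 were lower at L3 and higher in young adults, 62 the reverse, 2607 and 1866 differed in young adults with an L3 difference of at most 0.5, and 37 and 62 differed at L3 with a young adult difference of at most 0.5.

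The called genes fell into 3 kinds. Reversed genes were called at both stages with opposite signs: 429 were lower in XO hermaphrodites at L3 and higher in young adults (2.93% of all tested), and 62 went the other way (0.424%). Appearing genes were called in young adults with an L3 difference of at most 0.5 on the log2 scale: 2607 were higher in XO hermaphrodite young adults (17.8%) and 1866 lower (12.8%). Fading genes were called at L3 with a young adult difference of at most 0.5: 37 were higher in XO hermaphrodites at L3 (0.253%) and 62 lower (0.424%). Of the reversed genes 5 also met the fading limit. Another 3214 called genes met none of the 3 definitions. Of these 1612 had a young adult call with an L3 difference of opposite sign that was over the limit but not called. In 1065 such an uncalled L3 difference had the same sign, and 977 of them were lower in XO hermaphrodites at both stages. Among the interaction calls, a difference of the same sign called at both stages was rare, with 48 genes, of which 42 differed more in young adults. Genes that differed alike at both stages are outside that count, as the interaction does not call them. An example is her-1, at 3.04 at L3 and 4.02 in young adults.

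Ranked by the smaller of the 2 differences, gld-1 and plk-3 led the genes that were lower at L3 and higher in young adults, both at 2.07 on the log2 scale. The gene gld-1 (WBGene00001595) on chromosome I encodes an RNA-binding repressor of translation needed for oocyte meiosis. Its FPKM was 11.4, 5.38 and 5.38 in XO hermaphrodite L3 and 32, 39.9 and 26.6 in XX male L3, then 371, 420 and 374 in XO hermaphrodite young adults and 58.1, 62.9, 54.2 and 82.9 in XX male young adults. The groups did not overlap at either stage, and the order of the animals turned over. The class was chosen by calls at both stages, so this largely follows from the choice, here and in the reversed genes below. Without overlap were 427 of its 429 genes at L3 and 429 in young adults, against 2654 and 11057 of all 14628 tested genes. The log2 difference was -2.07 ± 0.26 at L3 and 2.59 ± 0.25 in young adults, an interaction of 4.66 ± 0.36 (SE, limma adjusted p = 5.64e-07). In XX males gld-1 rose by 0.95 with stage and in XO hermaphrodites by 5.61.

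The polo-like kinase gene plk-3 on chromosome IV had the same order. It lay at 4.26, 1.67 and 1.99 FPKM in XO L3, 15.6, 12.3 and 13.1 in XX L3, 184, 204 and 174 in XO young adults and 37.3, 35.6, 35.1 and 42.8 in XX young adults. No library of one animal reached the other at either stage, and the interaction was 4.35 ± 0.32 (limma adjusted p = 3.49e-07). For cpb-3 on chromosome I, a CPEB-type RNA-binding protein of the germ line, the values were 3.26, 2.94 and 2.61, then 12.3, 14.1 and 11.6 at L3, and 81.1, 83.7 and 78.3, then 12.2, 12.8, 11.5 and 16.4 in young adults, in XO and XX animals in turn. Here XX males were alike at both stages (stage change 0.05, limma adjusted p = 0.836), while XO hermaphrodites went from lowest to highest. Its interaction of 4.34 ± 0.24 had a limma adjusted p of 2.73e-08.

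In sys-1, a beta-catenin gene that acts in the gonad's asymmetric divisions, the XX males fell rather than rose. Its FPKM was 4.49, 0.772 and 1.36 in XO L3 and 9, 12.4 and 7.4 in XX L3, against 27.1, 22 and 19 in XO young adults and 3.53, 4.6, 5.63 and 5.87 in XX young adults. The groups were again separate at each stage, and the stage change of the XX males was -0.84 (limma adjusted p = 0.0568), against 3.04 in XO hermaphrodites. The L3 call of sys-1 was lost in 5 of 27 fits. The kinase gene cdk-2, of the DNA replication cycle, and Y65A5A.2, whose product has no role given here, also reversed, with interactions of 3.67 ± 0.41 and 3.64 ± 0.34 (limma adjusted p = 1.3e-05 and 3.34e-06).

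**Figure D2:**
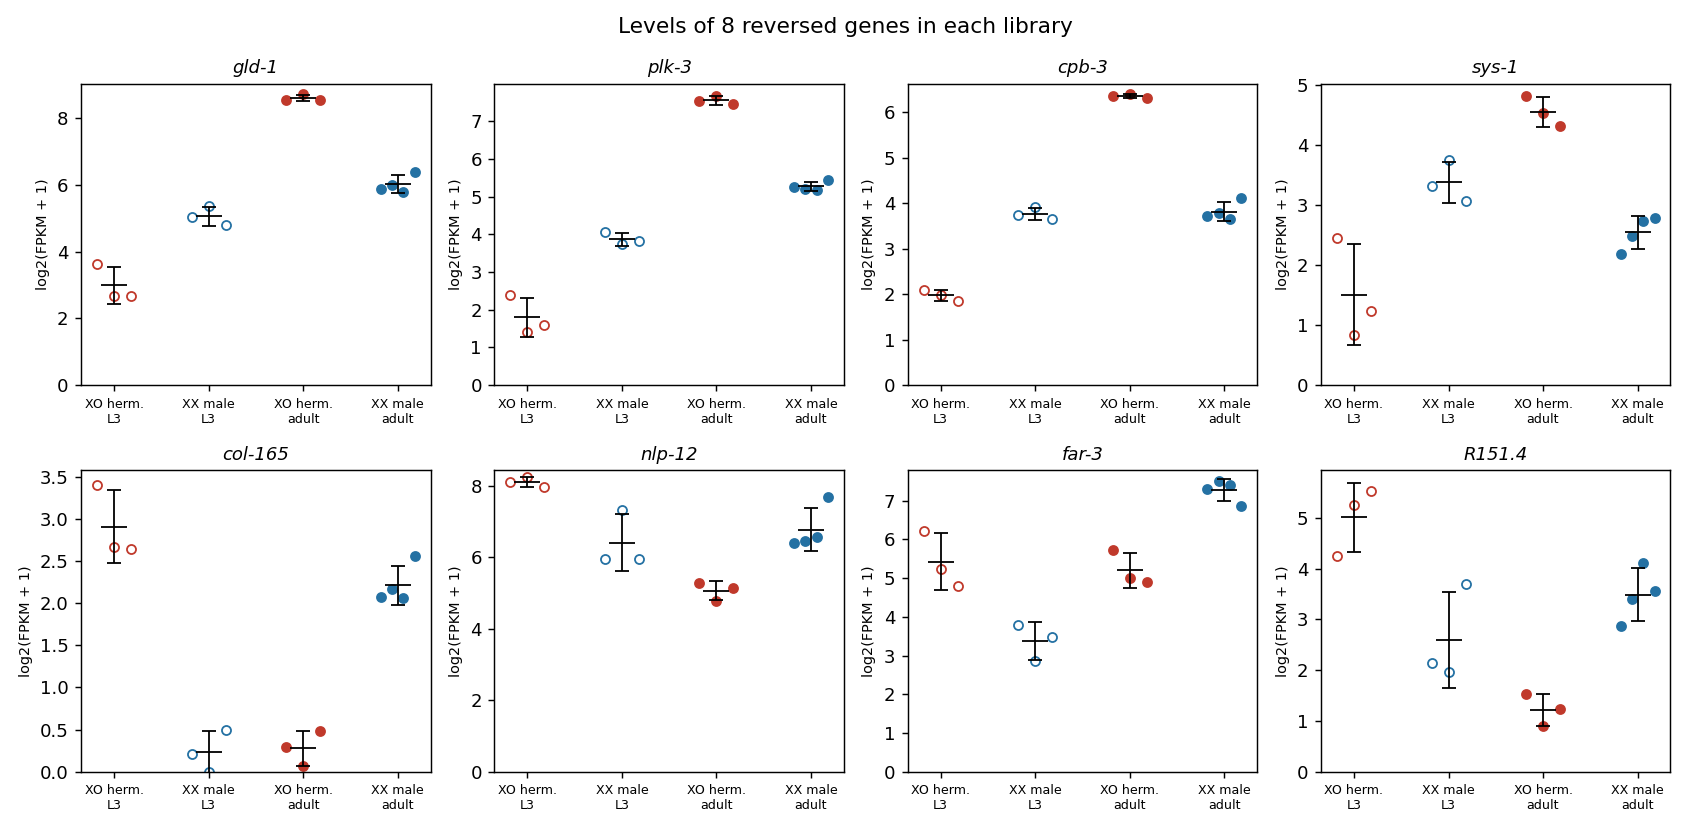
Levels of 8 reversed genes, on the y axis as log2(FPKM + 1), in each library of the 4 groups on the x axis; open points are L3, filled points young adults, and bars are the mean and SD of 3 or 4 libraries. In the upper row XO hermaphrodites are below XX males at L3 and above them in young adults, and in the lower row the order is the reverse.

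The count of reversed genes depended on the choice of libraries. Without XO hermaphrodite L3 replicate 1 it was 1936 lower at L3 and 244 higher at L3, and without XX male L3 replicate 2 it was 720 and 185. Without each of the other libraries it was 131 to 399 and 17 to 67. The genes that stayed reversed in all 27 fits numbered 17, and all were lower at L3: gld-1, plk-3, cpb-3, daz-1, htp-2, him-3, syp-4, mex-5, prg-2, inx-8, rga-3, Y65A5A.2, D1081.7, F57B10.4, C38D4.4, R11A8.1 and C14B1.7. Several are known genes of the germ line: him-3 and htp-2 encode meiotic chromosome axis proteins, syp-4 a synaptonemal complex protein, daz-1 an RNA-binding protein of oogenesis, mex-5 a maternal zinc finger protein of embryo polarity and prg-2 a Piwi protein. The gene inx-8 encodes a gap junction protein of the somatic gonad. The L3 difference of these 17 ranged from -2.25 in inx-8 to -1.21 in C14B1.7. The young adult difference ranged from 1.04 in inx-8 to 2.59 in gld-1.

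The 429 genes were also described by stage change, chromosome and length. In XO hermaphrodites 427 of them (99.5%) rose with stage, against 33.7% of all tested genes, and 1 fell, against 28.5%. In XX males 112 rose and 69 fell, against 21.7% and 28.5% of all tested genes. Their median stage change was 2.69 in XO hermaphrodites and 0.08 in XX males. Both stage changes use the libraries that chose the genes, so these counts describe the class. XO hermaphrodite young adults had the highest mean in 97.7% of them, against 33.8% of all tested genes. The order that defines the class left only XO young adults or XX L3 to be highest. By chromosome, 28.9% lay on I and 24.7% on III, against 16.6% and 15.5% of all tested genes, and 2.1% (9 genes) lay on the X, against 13.6%. All genes called higher in the interaction leaned the same way, with 22.6% on I, 21.1% on III and 4.73% on the X. The lean is thus not particular to reversed genes. Their median gene length, introns included, was 3710 bases against 2290 for all tested genes, by the WBcel235 annotation. It was 2710 for all genes called higher and 3910 for the fading genes that were lower at L3.

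Genes that hold germline stem cells in division changed together. These genes act around the Notch receptor GLP-1, whose signal from the gonad's tip cell keeps germ cells mitotic. Of 17 tested, 16 were higher in the interaction (94.1%, against 32.6% of all tested genes) and 0 lower (against 23.9%). Their median was 2.86 in the interaction, -1.07 at L3 and 1.79 in young adults. Reversed members numbered 11, and they were 5 without XO L3 replicate 3, 7 without XO L3 replicate 2 or XX L3 replicate 1, and 1 with 1 weight per group. The receptor gene glp-1 went from 3.74, 2.28 and 2.97 FPKM in XO L3 against 8.41, 7.59 and 10.4 in XX L3 to 76.5, 82.4 and 65.9 in XO young adults against 5.71, 5.7, 5.76 and 7.7 in XX young adults. The XX males stayed in 1 narrow range while the XO hermaphrodites crossed it (interaction 4.70 ± 0.28, limma adjusted p = 5.23e-08). The largest change of the list was in mex-3, a maternal RNA-binding protein, with an interaction of 5.24 ± 0.33 (limma adjusted p = 8.19e-08). The ligand gene lag-2, made by the tip cell, had 0.63 (limma adjusted p = 0.253). RNA was taken from whole worms, so more cells of a type and more RNA per cell cannot be told apart here or below. The gene glp-1, the other germline genes named with it by role, the peptide genes listed below and the members named for missing a call were chosen after their values were seen.

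Meiotic chromosome genes moved in the same direction. Of 35 tested, 33 were higher in the interaction (94.3%, against 32.6% of all tested genes) and 0 were lower (against 23.9%). Their medians were -1.05 at L3, 1.5 in young adults and 2.65 in the interaction. Reversed members numbered 21, or 12 without XX L3 replicate 1, 10 with quantile normalization and 4 with 1 weight per group. The axis gene htp-2 was 1.34, 2.56 and 2.48 FPKM in XO L3 and 15.1, 8.96 and 9.4 in XX L3, then 44.2, 47.3 and 40.7 in XO young adults and 16.1, 14.1, 13.9 and 19.3 in XX young adults. The order of the animals turned over with no overlap (interaction 3.37 ± 0.33, limma adjusted p = 4.26e-06). The pairing-centre protein gene zim-1 had an interaction of 3.28 ± 0.31 (limma adjusted p = 3.27e-06). Not called were lab-1, a meiotic cohesion protein gene, at 0.35 (limma adjusted p = 0.428), and him-5 at 2.65 (limma adjusted p = 0.111).

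P granule and germline small RNA genes were mostly higher. Of 29 tested, 27 were higher (93.1%, against 32.6% of all tested genes) and 2 were lower (6.9%, against 23.9%). The median interaction was 2.62. The 11 reversed members became 17 without XO L3 replicate 1, 3 without XX L3 replicate 1, 4 without XO L3 replicate 2 or 3, 6 without XX L3 replicate 3, and 7 without any 1 of the XO young adult libraries or of XX young adult replicates 1 to 3. The nanos gene nos-2 lay at 0.939 to 2.28 FPKM in every L3 library and in the XX young adults, and at 119, 124 and 96.7 in XO young adults. Only the XO young adult libraries were high, and the interaction was 4.92 ± 0.28 (limma adjusted p = 3.56e-08). The sperm Argonaute gene T22B3.2 (current name alg-3) went the other way, at -2.97 ± 0.93 (limma adjusted p = 0.0156), and lost its call in 2 of 27 fits.

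Oocyte, yolk and cell division genes were mostly higher in the interaction. Of 35 oocyte and eggshell genes, 34 were higher in the interaction (97.1%, against 32.6% of all tested genes), with a median of 4.55. Reversed members numbered 8, but 15 without XO L3 replicate 1, 3 without XO L3 replicate 2 or 3, 4 without XX L3 replicate 1, and 5 without XX L3 replicate 3, XO young adult replicate 1 or XX young adult replicate 2. The RNA-binding gene puf-5 had 1.17, 0.768 and 0.766 FPKM in XO L3, 1.57, 2.22 and 1.76 in XX L3, 433, 485 and 413 in XO young adults, and 3.83, 4.49, 3.46 and 4.2 in XX young adults. It was low everywhere but in XO young adults (interaction 7.06 ± 0.25, limma adjusted p = 9.54e-10). The eggshell protein gene cbd-1 was reversed, with 4.6, 1.78 and 2.28 against 7.51, 5.9 and 8.08 FPKM at L3 and 655, 731 and 625 against 15.8, 17.5, 13.6 and 12.9 in young adults (interaction 6.53 ± 0.33, limma adjusted p = 1.41e-08). Its L3 difference of -1.13 was small beside the young adult one of 5.40, and its L3 call was lost in 9 of 27 fits.

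Of the 6 yolk protein genes 5 were higher (83.3%, against 32.6% of all tested genes), with vit-1 at 5.53 ± 0.71 (limma adjusted p = 4.04e-05). These yolk genes are close copies, so reads may be split between them. The gene vit-6 was listed at 0 in 2 XO young adult libraries and at 10500 FPKM in the other, and was not called (limma adjusted p = 0.27). All 31 cell cycle and replication genes were higher, against 32.6% of all tested genes, with a median of 3.31. The 9 reversed ones became 18 without XO L3 replicate 1, 15 without XX L3 replicate 2, 2 and 3 without XO L3 replicates 2 and 3, 5 without XX L3 replicate 1 or 3, XO young adult replicate 1 or XX young adult replicates 1 to 3, and 0 with 1 weight per group. The cyclin gene cyb-3 lay at 38.4, 40.2 and 31.3 FPKM in XO L3, 49, 62.2 and 55.5 in XX L3, 649, 736 and 535 in XO young adults and 28.6, 29.1, 31.1 and 35.1 in XX young adults. It rose in XO hermaphrodites by 4.08 and fell in XX males by 0.82 (interaction 4.91 ± 0.24, limma adjusted p = 8.77e-09).

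**Figure D3:**
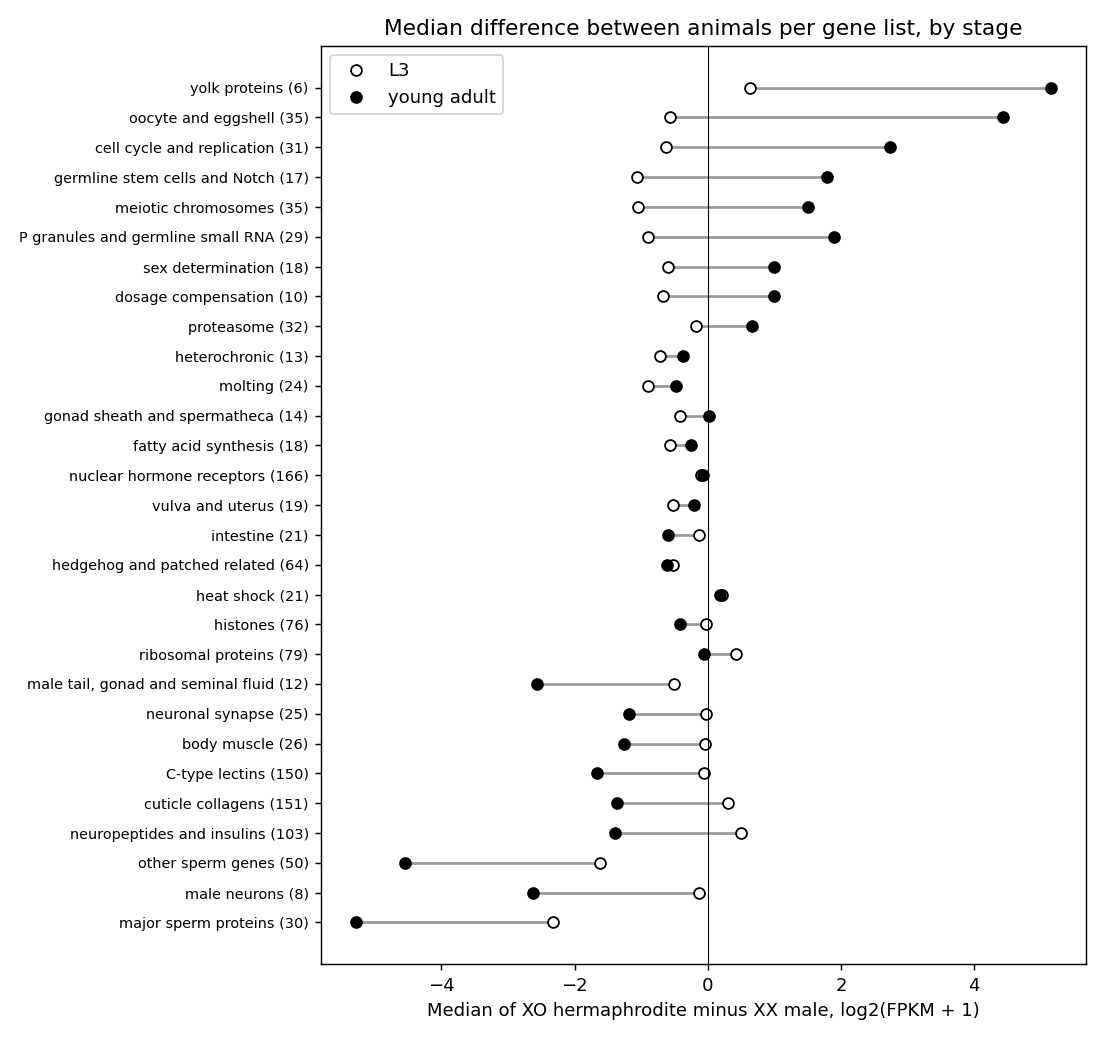
Median difference between XO hermaphrodites and XX males (x axis, log2(FPKM + 1)) for 29 gene lists (y axis, number of tested genes in brackets), with open points for L3 and filled points for young adults joined by a line. The stem cell, meiotic, P granule and oocyte lists go from below 0 at L3 to above 0 in young adults, the neuropeptide and collagen lists the other way. Both sperm lists are below 0 at each stage and lower in young adults. Over the scalings the sign of the median interaction flipped in the lists of vulva, sheath, molting, hedgehog, nuclear hormone receptor, intestine, fatty acid, histone, ribosomal and heat shock genes.

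The 62 genes that were higher in XO hermaphrodites at L3 and lower in young adults mostly fell with stage in XO hermaphrodites. There 57 of them (91.9%) fell with stage and 1 rose, against 28.5% and 33.7% of all tested genes. In XX males 26 rose (41.9%) and 3 fell (4.84%), against 21.7% and 28.5%. The median stage changes were -2.06 in XO hermaphrodites and 0.45 in XX males. The same libraries chose the genes, so these counts describe the class. XO hermaphrodite L3 had the highest mean in 82.3% of them, against 18.2% of all tested genes. The order that defines the class left only XO L3 or XX young adults to be highest. On the X chromosome lay 27.4% (17 genes), against 13.6% of all tested genes, 14.1% of all genes called lower and 18.9% of fading genes higher at L3. Their median gene length was 1170 bases, against 2290 for all tested genes and 1160 for fading genes higher at L3.

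The cuticle collagen gene col-165 on the X chromosome had the largest L3 difference among the named genes of this class. It was 9.59, 5.34 and 5.27 FPKM in XO L3 and 0.159, 0 and 0.407 in XX L3, then 0.226, 0.0446 and 0.396 in XO young adults and 3.22, 3.49, 3.17 and 4.88 in XX young adults. The gene was thus high in XO larvae and in XX adults and near 0 in the other 2 groups (interaction -4.61 ± 0.34, limma adjusted p = 3.7e-07). The fatty acid and retinol binding protein gene far-3 lay at 73.9, 36.8 and 26.8 FPKM in XO L3 and 51.5, 30.9 and 28.7 in XO young adults, a stage change of -0.22 (limma adjusted p = 0.614). In XX males it went from 12.9, 6.21 and 10.2 to 156, 181, 167 and 116, passing the XO hermaphrodites (interaction -4.11 ± 0.50, limma adjusted p = 2.55e-05).

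The neuropeptide gene nlp-12, a cholecystokinin-like peptide of a tail neuron, fell in XO hermaphrodites. It lay at 277, 305 and 251 FPKM in XO L3 and 61.4, 159 and 61 in XX L3, against 38, 26.4 and 34.1 in XO young adults and 84.1, 86.5, 93.3 and 204 in XX young adults. The XO values dropped below every XX value (interaction -3.42 ± 0.53, limma adjusted p = 1.67e-04). The L3 call of nlp-12 was lost in 6 of 27 fits. R151.4 and T05H10.3 had interactions of -4.69 ± 0.65 and -4.16 ± 0.48 (limma adjusted p = 7.2e-05 and 1.68e-05), and lost their L3 calls in 5 and 2 of 27 fits. The gene fip-3, of a family of fungus-induced small peptides, was listed at 0 in all XX L3 and all XO young adult libraries, at 0.892 to 6.33 FPKM in XO L3 and at 254 to 339 FPKM in XX young adults, so no fold is given (limma adjusted p = 2e-08); it belongs to a family of close copies.

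Neuropeptide and insulin genes were mostly lower in the interaction. Of 103 tested, 69 were lower and 2 higher, with medians of 0.50 at L3, -1.39 in young adults and -1.94 in the interaction. Reversed members numbered 9, and this count rested on single L3 libraries. It was 1 without XO L3 replicate 2, XO L3 replicate 3 or XX L3 replicate 1, 18 without XO L3 replicate 1, 23 without XX L3 replicate 2, 5 without XX L3 replicate 3, 4 without XO young adult replicate 1 or XX young adult replicate 1 or 2, and 0 with 1 weight per group. The 9 were flp-5, flp-7, flp-14, flp-21, flp-25, flp-33, nlp-1, nlp-12 and nlp-21, all encoding secreted peptides, with flp-21 at 1.24 at L3 and -3.40 in young adults (interaction -4.64, limma adjusted p = 1.93e-06). Other members were high in XX young adults alone. The insulin-like gene ins-31 was listed at 0 to 1.42 FPKM in the other 3 groups and at 528, 488, 527 and 1070 in XX young adults (interaction -8.84 ± 0.49, limma adjusted p = 2.96e-08). The peptide gene flp-23 was listed at 0 in every XO library of both stages, at 0 to 0.682 in XX L3 and at 31 to 45 in XX young adults (limma adjusted p = 8.06e-08). Of the 2 higher members, ins-34 rose in XO hermaphrodites to 14.9, 14.9 and 10 FPKM (interaction 3.85 ± 0.59, limma adjusted p = 1.59e-04), and ins-23 had 2.23 ± 0.65 (limma adjusted p = 0.0106) and lost its call in 1 of 27 fits.

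Genes of the male nervous system were lower in the interaction. Of 12 listed genes of the ciliated male neurons 8 passed the mean filter. All 8 were lower in the interaction, against 23.9% of all tested genes, with a median of -2.74, while their median difference at L3 was -0.13. A gene low in the other groups passes that filter only through XX young adults, so the filter favours lower calls. Without the filter 11 were lower and 0 higher, with a median of -2.0. The gene cwp-2, expressed in male sensory neurons with the polycystins, lay at 0 to 3.24 FPKM in XO L3, 0 to 6.69 in XX L3, 1.04 to 1.19 in XO young adults and 80.8, 76.2, 77.5 and 114 in XX young adults. Only the XX young adults were high (interaction -5.07 ± 0.89, limma adjusted p = 4.05e-04). Of 12 male tail, gonad and seminal fluid genes, 6 were lower, or 3 with the common sum, and 1 was higher. The lectin gene clec-207 was listed at 0 in every L3 library, at up to 0.151 FPKM in XO young adults and at 244, 271, 262 and 343 in XX young adults (interaction -7.99 ± 0.25, limma adjusted p = 5.34e-10). The higher member was fkh-6, a gonad transcription factor gene, at 1.38 ± 0.36 (limma adjusted p = 0.00624), which lost its call in 1 fit.

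Sperm genes were already high in 1 of the XX male L3 libraries. The 30 major sperm protein genes, which encode the cytoskeleton of the crawling sperm, had a median difference of -2.33 at L3 and -5.28 in young adults. In the interaction 5 of them were lower (16.7%, against 23.9% of all tested genes), with a median of -2.92. Their mean level on the log2 scale was 5.64 in XX male L3 replicate 1 and 0.51 and 1.60 in the other XX L3 libraries, 0.16 to 0.81 in XO L3, and 6.13 in XO young adult replicate 3 against 4.12 and 3.70 in the other XO young adults. All 30 were called lower without XX male L3 replicate 1, 14 without XO young adult replicate 3, and 3 without XO L3 replicate 1, XX L3 replicate 2 or 3, or XO young adult replicate 1 or 2. The members most changed were msp-63, at -4.77 ± 0.75 (limma adjusted p = 1.88e-04), and msp-32, at -4.53 ± 0.80 (limma adjusted p = 4.53e-04); these genes are near-identical copies, so their reads may be split. Of 50 other sperm genes 24 were lower and 3 higher, with a median of -2.58, and 46 were lower without XX male L3 replicate 1 and 9 with a pseudocount of 0.1.

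Of the 3 sperm-list genes that were higher, 2 are described here. W02D9.5 (current name ssp-37) was listed at 0 in all L3 libraries, at 24.6, 18.4 and 18.6 FPKM in XO young adults and at 0.129 to 0.48 in XX young adults (interaction 4.07 ± 0.24, limma adjusted p = 4.33e-08). The gene cpb-1, a CPEB protein gene needed for sperm formation, was a fading gene. It lay at 1.01, 0.416 and 0.617 FPKM in XO L3 against 18.3, 11.5 and 11.5 in XX L3, and at 37.8, 41 and 37.4 in XO young adults against 38.3, 38.5, 36 and 65.5 in XX young adults. A difference of -3.12 ± 0.26 at L3 had shrunk to -0.15 ± 0.24 (interaction 2.96 ± 0.35, limma adjusted p = 2.29e-05). R08A2.3 (current name ssp-33) and ssp-31 followed the list, at -4.02 ± 0.65 and -3.94 ± 1.20 (limma adjusted p = 2.27e-04 and 0.0138).

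Among the 6 appearing genes named on the higher side, 4 have current names of the ule family, named for expression in the lumen of the uterus. C08F11.11 (current name ule-4) on chromosome IV was listed at 0 to 0.721 FPKM in all L3 libraries, at 1240, 1100 and 1120 in XO young adults and at 1.78, 0.995, 1.04 and 27.7 in XX young adults. The XO young adults were higher than every other library, and XX young adult replicate 4 was above the other XX libraries (interaction 7.82 ± 1.06, limma adjusted p = 6.21e-05). D1054.11 (ule-3), W03F11.1 (ule-1), Y62H9A.6 (ule-5), D1054.10 and Y37D8A.19 had the same order, with interactions of 6.82 to 7.63.

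On the lower side, K03D3.5 and fipr-20 were listed at 0 in all L3 and all XO young adult libraries and at 755 to 1160 FPKM and 835 to 1840 FPKM in XX young adults (limma adjusted p = 2.99e-10 and 9.74e-10). Y47D7A.11, C48B4.12, K12H6.9 and fipr-17 were likewise high in XX young adults alone, at 687 to 5430 FPKM, and at 8.06 FPKM or less in every other library. The fipr genes are small peptide genes of close copies. Among the 1866 lower appearing genes 388 (20.8%) were under 1 FPKM in every L3 library, against 4.04% of all tested genes. A gene that low at L3 passes the mean filter only through young adults, and its L3 difference is small because of its level. The filter and the class limit thus favour this share, which is no separate trait of the class.

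Lectin and muscle genes were mostly lower as deposited. Of 255 lectin genes, which encode secreted sugar-binding proteins, 150 were tested. Of these 83 were lower (55.3%, against 23.9% of all tested genes) and 12 higher (8.0%, against 32.6%), with a median of -1.58. The mean filter keeps genes that are high in XX young adults alone. Without it 96 were lower and 14 higher, with a median of -0.46. The genes clec-197 and clec-99 lay at 0.623 FPKM or less outside XX young adults and at 448 to 752 within them, and clec-87, a further lectin gene, rose to 844, 962 and 715 FPKM in XO young adults from 4.6, 15.8 and 11.1 at L3 (interaction 6.81 ± 0.52, limma adjusted p = 5.13e-07). Of 26 muscle genes 20 were lower (76.9%) and 0 higher, with a median of -1.32 and an L3 median difference of -0.04. With the common sum 8 muscle genes were lower and 1 higher, and with quantile normalization 14 and 2. The troponin gene tni-3 lay at 78, 121 and 108 FPKM in XO L3 and 64.7, 68.6 and 70.8 in XO young adults (stage change -0.56, limma adjusted p = 0.0598). It rose in XX males from 95, 72.6 and 142 to 511, 639, 664 and 493 (interaction -3.07 ± 0.33, limma adjusted p = 9.68e-06). Of 25 synapse genes 13 were lower (52.0%) and 2 higher (8.0%), beside the same shares of all tested genes. The monoamine transporter gene cat-1 rose in XX males to 24.9, 24.1, 21.2 and 22.6 FPKM (interaction -3.78 ± 0.27, limma adjusted p = 2.77e-07). The octopamine synthesis gene tbh-1 rose in XO hermaphrodites to 35, 27.9 and 25.8 FPKM (interaction 2.80 ± 0.26, limma adjusted p = 2.51e-06).

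Of 151 tested collagen genes 50 were lower (33.1%, against 23.9% of all tested genes) and 2 higher. Their median difference was 0.31 at L3 and -1.36 in young adults. The lower count was 87 without XO young adult replicate 3, 29 without XO young adult replicate 2, 31 without XX young adult replicate 1 and 30 without XX young adult replicate 3, and it was 24 with the common sum and 76 with upper quartile scaling. In col-129, 316, 221 and 864 FPKM in XO young adults stood against 2170, 2120, 2400 and 714 in XX young adults, so the groups overlapped (interaction -3.65 ± 0.68, limma adjusted p = 6.83e-04). The higher members were col-135, at 58.5, 36.5 and 17.7 FPKM in XO young adults, and col-70, at 4.86, 4.38 and 8.26 FPKM, both under 0.5 FPKM in every other library (limma adjusted p = 2.75e-06 and 8.14e-06).

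Sex determination and dosage compensation genes moved toward XO hermaphrodites. Of 18 sex determination genes 14 were higher (77.8%, against 32.6% of all tested genes) and 1 lower (5.56%, against 23.9%), with a median of 1.61. The gene fem-3, which promotes male fate, was reversed: 1.93, 0.95 and 1.12 FPKM in XO L3 against 3.87, 4.32 and 5.29 in XX L3, then 41.7, 48.2 and 36.4 against 3.14, 2.93, 3.32 and 4.53 in young adults (interaction 4.52 ± 0.30, limma adjusted p = 1.64e-07). The lower gene was fog-3, which commits germ cells to sperm, at 4.1, 7.4 and 6.27 FPKM in XO L3 and 3.4, 2.54 and 1.3 in XO young adults, against 37.8, 27.6 and 21.9, then 51.8, 55.6, 48.5 and 62.4 in XX males (interaction -1.95 ± 0.38, limma adjusted p = 9.35e-04). The mutated gene tra-2 was higher, at 1.57 ± 0.364 (limma adjusted p = 0.00281). All 10 dosage compensation genes, which encode the condensin-like complex that lowers X expression and its recruiters, were higher, with a median of 1.45. Of all tested genes 32.6% were higher. The largest was capg-1 at 2.42 ± 0.34 (limma adjusted p = 8.52e-05). The gene sdc-3, mutated in TY2205, had 1.05 ± 0.223 (limma adjusted p = 0.00155) without a rise in XO hermaphrodites. It lay at 0.24 to 0.416 FPKM in every XO library, and at 3.95 to 5.31 in XX L3 and 1.32 to 1.79 in XX young adults. Its difference was -2.06 at L3 and -1.01 in young adults, so the positive interaction came from the fall in XX males.

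In the lists of sheath, vulva, heterochronic and molting genes most members did not pass, and the shares called higher, 10.5% to 28.6%, were below the 32.6% of all tested genes. Of 14 sheath and spermatheca genes 4 were higher, led by the oocyte gap junction gene inx-22 (3.89 ± 0.27, limma adjusted p = 2.1e-07). Of 19 vulva and uterus genes 2 were higher, led by the EGF gene lin-3 (3.44 ± 0.43, limma adjusted p = 3.33e-05), and 4 were lower, led by egl-43 (-1.69 ± 0.60, limma adjusted p = 0.0298), which lost its call in 9 of 27 fits. Of 13 heterochronic genes 3 were higher, led by lin-41 (4.43 ± 0.85, limma adjusted p = 8.24e-04), which also acts in oocytes, and of 24 molting genes 3 were higher, led by the protease gene nas-37 (3.18 ± 0.76, limma adjusted p = 0.00353). Without XO hermaphrodite L3 replicate 1 the higher counts of these 4 lists were 7, 6, 8 and 8, and with the common sum those of the sheath, vulva and molting lists were 7, 8 and 9. The molting count was 6 without XX L3 replicate 2, and the lower count of the vulva list was 2 without XX L3 replicate 1.

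In the hedgehog, receptor, intestine and fatty acid lists the shares called higher were 0 to 11.4%, against 32.6% of all tested genes, and the shares called lower were 6.02% to 27.8%, against 23.9%. Of 64 hedgehog and patched related genes 4 were higher, led by ptr-2 (4.91 ± 0.36), and 10 lower, led by grd-13 (-3.39 ± 0.69; limma adjusted p = 3.7e-07 and 1.26e-03). Of 166 nuclear hormone receptor genes 19 were higher, led by nhr-2 (2.71 ± 0.27), and 10 lower, led by nhr-53 (-2.26 ± 0.34; limma adjusted p = 5.44e-06 and 1.52e-04). The balance of the receptor calls turned with scaling, at 41 higher and 2 lower with the common sum and 8 and 40 with the upper quartile, and 10 to 12 were higher without XO L3 replicate 2, XO young adult replicate 1 or 3, or XX young adult replicate 1. Of 21 intestine genes 5 were lower (23.8%) and 0 higher, led by the protease gene cpr-4 (-2.37 ± 0.67, limma adjusted p = 0.00906), which lost its call in 3 fits. Of 18 fatty acid synthesis genes 2 were higher, led by elo-3 (1.59 ± 0.47), and 5 lower, led by elo-8 (-2.82 ± 0.51; limma adjusted p = 0.0123 and 5.03e-04). Without XO hermaphrodite L3 replicate 1 the higher counts of the hedgehog, receptor and fatty acid lists were 9, 28 and 7. The lower counts of the hedgehog, intestine and fatty acid lists were 5, 3 and 2 with the common sum and 16, 9 and 8 with the upper quartile. The hedgehog list had 8 higher without XX L3 replicate 2, and the fatty acid list had 1 higher without any 1 library but XO L3 replicate 1, XX L3 replicate 3 and XO young adult replicate 2.

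In the histone, ribosomal and heat shock lists the shares called lower, 20.3% to 28.6%, were near the 23.9% of all tested genes. The shares called higher there, 0 to 23.8%, were below the 32.6% of all tested genes. Of 76 histone genes 9 were higher, among them the linker histone gene hil-6 (2.96 ± 0.40, limma adjusted p = 5.74e-05). Another 16 were lower (21.1%), among them hil-1 (-2.42 ± 0.51, limma adjusted p = 0.00146). Core histone genes are near-identical copies. Of the histone list 28 were lower without XO hermaphrodite L3 replicate 1, 6 with the common sum and 31 with the upper quartile. Of 79 ribosomal protein genes 16 were lower (20.3%) and 0 higher; the most changed was rpl-42 (-3.16 ± 0.75, limma adjusted p = 0.00329). The ribosomal calls turned over with scaling, at 1 lower and 33 higher with quantile normalization, 3 and 4 with the common sum and 48 and 0 with the upper quartile, and 53 were lower without XO hermaphrodite L3 replicate 1. Of 21 heat shock genes 5 were higher, led by their regulator hsf-1 (2.64 ± 0.30, limma adjusted p = 1.46e-05), and 6 lower, led by hsp-12.3 (-3.77 ± 0.40, limma adjusted p = 8.91e-06); with the upper quartile 1 was higher and with median ratio 2. Of 32 proteasome genes 25 were higher (78.1%) and 0 lower, led by rpn-6.1 (1.77 ± 0.25, limma adjusted p = 9.61e-05), with 17 to 28 higher when 1 library was left out, but 5 with upper quartile and 11 with median ratio scaling. Of the 15 early embryo genes only elt-3 was expressed enough to be tested, and it was not called (-1.02, limma adjusted p = 0.0974).

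Fading genes were few. Their counts were 186 and 670 without XO hermaphrodite L3 replicate 1, 66 and 156 without XX male L3 replicate 2, and 20 to 43 and 19 to 54 without each of the other libraries. Higher at L3 were the collagen gene col-74, with 11.6, 6.28 and 4.87 FPKM in XO L3, 0, 0 and 0.584 in XX L3 and at most 0.346 in any young adult library, and phat-5, a gene of the pharyngeal gland family, with 23.7, 21.6 and 20.7 against 2.83, 6.22 and 2.17 FPKM at L3. In both the animals converged at low levels (interactions -2.63 ± 0.37 and -2.67 ± 0.38, limma adjusted p = 8.15e-05 and 8.52e-05). Y110A2AL.4 and hil-1 had L3 differences of 2.30 ± 0.37 and 2.12 ± 0.37. Lower at L3, besides cpb-1, were F44E7.2, K08F4.3 and K09H11.7, with L3 differences of -2.01, -1.97 and -1.89, which lost their interaction calls in 2, 3 and 4 of 27 fits. In F44E7.2 and K09H11.7 the XX males fell with stage, and in K08F4.3 both animals rose.

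**Figure D4:**
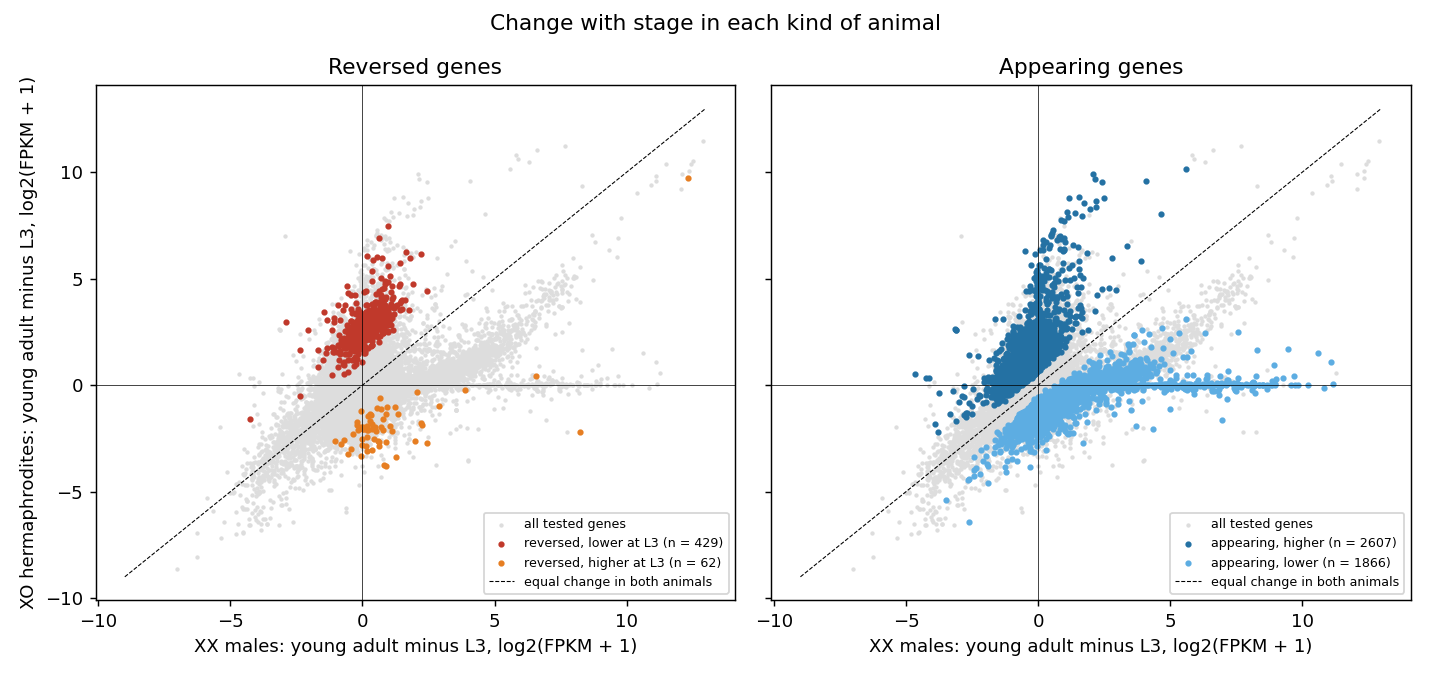
Change from L3 to young adult in XX males (x axis) and XO hermaphrodites (y axis), both as log2(FPKM + 1), for 14628 genes; the dashed line marks an equal change. Reversed genes (429 and 62, left) mostly lie above or below 0 on the y axis, with medians of 0.08 and 0.45 on the x axis. Among appearing genes (2607 and 1866, right) the higher ones rise in XO hermaphrodites or fall in XX males. The lower ones rise in XX males or fall in XO hermaphrodites. The interaction that chose the genes is the XO change minus the XX change, so their side of the dashed line was set by that choice.

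The appearing genes came about in both animals. Of the 2607 higher ones 2034 (78.0%) rose with stage in XO hermaphrodites, against 33.7% of all tested genes. In XX males 1062 of them (40.7%) fell, against 28.5%. Of the 1866 lower ones 950 (50.9%) fell in XO hermaphrodites, against 28.5%, and 990 (53.1%) rose in XX males, against 21.7%. The interaction that chose these genes is the XO stage change minus the XX one, so these counts describe the classes. Genes on the X made up 5.02% of the higher and 18% of the lower ones, against 13.6% of all tested genes. The median interaction by chromosome was 0.61 on I, 0.14 on II, 0.63 on III, -0.03 on IV, -0.15 on V and -0.31 on X. The X median minus the autosomes' median of 0.20 was -0.51, against a spread between libraries of a group of 0.084; no test was made. Genes of 1 kind often lay next to each other in the order of WBcel235 genes, in which 98.3% of tested genes were found. Of the higher appearing genes 50.8% had a neighbour of the same kind, against 31.3% of all tested genes, and of the lower ones 34.2% against 23.5%. For the genes lower at L3 and higher in young adults it was 12.6% against 5.66%.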

How the data were processed

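Whole worms of 2 strains at 2 stages were profiled by stranded sequencing of poly(A) RNA, per the labels' protocols. What the authors deposited is a single table of genes by libraries in FPKM, per the file headers. The submitters' processing notes name Cufflinks 2.2.0. For the aligner, annotation and build, versions and names were not given in the sources used here. Coordinates are therefore left out and the chromosome of a gene is the one in the table. Columns were matched to samples by their full names, with 0 columns unmatched. Replicate numbers follow the sample titles. Nothing says that replicates came from separate cultures, so p-values measure the spread between these libraries.

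The table had 20417 rows. After removal of 6 repeats there were 20411 genes, of which 22 were empty throughout and 13 had values only in XX male young adults, leaving 20376. Symbols are those of the table, and 19175 IDs matched a table of current names. Gene length and neighbours come from the WBcel235 annotation and were matched by symbol, or else by the gene's sequence name. Of 14381 matched genes 14376 lay on the chromosome given in the deposited table. Relative depth came from the steps between low values; absolute depth is unknown.

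Values were tested as log2(FPKM + 1), with a pseudocount of 1, and fold changes on this scale are too small for low genes. A linear model of the 4 group means without covariates was fitted with limma 3.58.1 (R 4.3.3), its variances moderated with a trend. Each gene had 1 residual variance shared by the 4 groups, although the L3 groups spread more widely. The p-values were adjusted by Benjamini-Hochberg over 14628 genes at a threshold of 0.05. The contrasts of that fit were the interaction, the difference at each stage and the stage change of each animal. Tables and figures were made with pandas 2.3.3, matplotlib 3.10.9 and numpy 2.4.6 under Python 3.11.15. The steps were tested on simulated data with known changes.

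The members and the 30 gene lists were chosen with earlier results of these data known. Named genes are, per direction, the 6 reversed genes with the largest smaller difference, the 6 appearing genes with the largest young adult difference and no overlap, the 4 fading genes with the largest L3 difference, and the called list member with the largest interaction (2 for the longer lists), with floors of 5 or 10 FPKM in the highest group. Alternatives covered the pseudocount, the filter, 4 scalings, weights, no trend, a replicate block, a stricter threshold, other limits on a small difference and leaving out libraries.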

Additional observations from a re-analysis of the deposited data

Results flagged for a closer look

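In the 4 XX male young adult libraries 16 of the 83 named genes had 1 value far from the other 3, by Dixon's criterion at the 95% level; chance gives this in about 1 of 20 groups. In 15 of them the value was that of replicate 4. Above the others it had nlp-12 at 204 FPKM, cpb-1 at 65.5, zim-1 at 11, cwp-2 at 114, ins-31 at 1070, clec-197 at 752, clec-99 at 703 and cpr-4 at 2220. The 6 appearing genes of XO young adults were also highest there, with C08F11.11 at 27.7 FPKM, D1054.11 at 15.9, W03F11.1 at 13.3, D1054.10 at 8.97, Y37D8A.19 at 27.8 and Y62H9A.6 at 13.8. Below the others it had col-129 at 714 FPKM. In replicate 2 the sperm gene R08A2.3 was lowest, at 47 FPKM. Without replicate 4 the counts of higher and lower interaction calls were 4762 and 3142.

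The difference between animals itself differed between the 2 stages, by the limma test of the interaction, in 4774 genes toward XO hermaphrodites and 3498 toward XX males.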

How the results depend on the processing

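The counts of interaction calls, 4774 higher and 3498 lower, stayed within 1.5 times under all alternatives, at 4369 to 5450 and 2995 to 3546 when 1 library was left out, and 81.6% to 99.3% of the called genes were kept. Called genes changed sign under the common sum (14), the upper quartile (8) and quantile normalization (29). The common sum gave 6015 higher and 2403 lower calls, the upper quartile 3567 and 5176. Of 2228 values of named genes under alternatives 2199 kept their interaction call, 29 lost it and 0 turned over, and 72 of 83 genes kept it throughout. The L3 call that a reversal also needs was less stable. It was lost in 9 of 27 fits for cbd-1, 6 for nlp-12, 5 for sys-1 and R151.4, 4 for fip-3 and 2 for fem-3. For gld-1, plk-3, cpb-3, htp-2, Y65A5A.2 and col-165 it was lost in 0.

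Reversed and fading counts moved by more than 1.5 times. Reversed genes lower at L3 (429) were 131 to 1936 when 1 library was left out, 1778 without both L3 libraries numbered 1, 1227 with the common sum, 208 with quantile normalization, 2171 with array weights, 23 with 1 weight per group and 92 at an adjusted p under 0.01. Those higher at L3 (62) were 17 to 244, 217, 29 with the common sum, 222 with the upper quartile, 140 with median ratio, then 342 and 3 with the weights and 9 at the stricter threshold. The cause was not tested. Of the 491 reversed genes 23 stayed so with 1 weight per group.

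Higher appearing genes were 1392 and 4008 with limits of 0.25 and 1, and lower ones 1094 with 0.25 and 1203 with the common sum. Fading genes higher at L3 (37) were 20 to 186 with 1 library out, 168 without both, 23 with a pseudocount of 0.1, 78 unfiltered, 129, 81 and 76 with upper quartile, median ratio and quantile, 225 with array weights, 2 with group weights, 10 at 0.01, and 20 and 62 with the limits of 0.25 and 1. Those lower at L3 (62) were 19 to 670, 604 without both, 165 with the common sum, 743 with array weights, 4 with group weights, 12 at 0.01, and 32 and 143 with the 2 limits. The X minus autosome median of -0.51 was -0.65 with a pseudocount of 0.1, -0.18 unfiltered and -0.92 from a mean of 5 FPKM.

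Same-numbered libraries of the 2 animals had residual correlations of -0.062 to -0.017 as larvae and, as young adults, of 0.047 to 0.298, and each of the 3 numbered XO young adult libraries, but no XO L3 library, correlated best with the XX library of its own number, which is a hint from the data. As 1 young adult value and all L3 values were low, the numbers were not taken to pair the libraries. With a replicate block within stage there were 4598 higher and 3113 lower calls, 60 and 15 reversed and 15 and 15 fading genes; with a replicate block across stages there were 191 and 37 reversed and 23 and 33 fading genes.

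Depth limits the low genes most at L3, where 4 of 6 libraries were at 0.225 to 0.293 of the reference library and the spread within groups was wider. The L3 differences, and with them the reversed and fading counts, are less precise than the young adult differences.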
